A study of Mus musculus with 8 samples.

Results

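The collagen-modifying enzymes and chaperones of the endoplasmic reticulum were followed in mouse knee joints through 10 genes. They are the lysyl hydroxylase genes Plod1, Plod2 and Plod3, the prolyl 4-hydroxylase alpha subunit genes P4ha1, P4ha2 and P4ha3, the prolyl 3-hydroxylase genes P3h1 and P3h3, and the chaperone genes Crtap and Serpinh1. The members were taken by gene name alone, and they made up 10 of the 20681 genes of the deposited table. All 10 passed the minimum set for testing, a normalised read count of 10 or more in 4 or more libraries out of 8, as did 14949 genes in all.

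The study sequenced polyadenylated RNA from whole knee joints, in 4 libraries with the label control and 4 with the label knockout. The gene in question is Loxl2, which encodes the collagen-crosslinking enzyme lysyl oxidase-like 2. Both groups are described as Acan-Cre;Loxl2 fl/fl, so the controls carry the floxed alleles and the Cre as well. The controls are said to have received vehicle, and the agent given to the other group is not given in the sources used here. All library names carry DMM, most often short for surgical destabilisation of the medial meniscus, a joint injury model, and the wt and ko tags of these names are taken as Loxl2 status. Cre under the control of Acan acts mainly in chondrocytes, while RNA came from the whole joint, so transcripts of all its tissues enter every value. Age and sex are not given in the sources used here.

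Collagen chains are modified in the endoplasmic reticulum before and while they wind into a triple helix. Prolyl 4-hydroxylation stabilises the helix, lysyl hydroxylation provides sites for sugars and for the crosslinks that lysyl oxidases later start, and prolyl 3-hydroxylation occurs at few positions through a complex of P3H1, CRTAP and the peptidyl-prolyl isomerase cyclophilin B. HSP47, the product of Serpinh1, binds the folded helix and travels with it towards the Golgi. In joints this machinery serves the fibroblasts, osteoblasts and chondrocytes that secrete collagen matrix.

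The libraries held 13991000 to 17411617 reads assigned to genes. Loxl2 itself had normalised counts of 282, 349, 1135 and 311 in the libraries labelled control, replicates 1 to 4, and 893, 1468, 960 and 1518 in those labelled knockout. It was higher with the knockout label by a log2 difference of 1.44 ± 0.40 (SE, adjusted p = 0.0294, limma), although the groups overlapped (exact permutation p = 0.0857, n = 4 per group). The call was lost in 5 of 8 fits that each left out a library, namely control replicates 1, 2 and 4 and knockout replicates 2 and 4, with adjusted p of 0.0663 to 0.0847 by limma, and also with edgeR (0.0669) and DESeq2 (0.0659) on all 8 libraries. Because the targeted gene goes against the label, groups are named below only by their labels, as control-labelled and knockout-labelled libraries. Counts per gene cannot show whether floxed exons were lost. Cartilage markers were present at uneven levels. Hapln1, the only chondrocyte marker called, was higher with the knockout label by 1.28 ± 0.30 (SE, adjusted p = 0.0165, limma), with overlapping groups. Its call was lost without knockout replicate 4 (0.0513, limma). Comp, a cartilage matrix gene, was at 4358 ± 1862 and 7942 ± 2462 (SD, n = 4 each). Its groups overlapped, and it just missed the threshold (adjusted p = 0.0501, limma). Acan had counts of 544, 101, 52.3 and 186 in the libraries labelled control and 372, 358, 231 and 184 in those labelled knockout. Within each group Acan was lowest where Comp was highest, in control replicate 3 (Comp 6974) and knockout replicate 4 (Comp 11075). Matn3 was at 0 in control replicate 3, and Matn1 was not in the table.

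The levels of 7 of the 10 genes, Plod2, Plod3, P4ha3, P3h1, P3h3, Crtap and Serpinh1, were higher in the knockout-labelled libraries at an adjusted p under 0.05 (limma, Benjamini-Hochberg over all genes tested). No member was lower at that threshold. Across all genes 23.2% were called, 11.6% as higher and 11.6% as lower. The same 7 members had groups that did not overlap, as did 25.1% of all genes, 11.7% with the knockout-labelled group above and 13.4% with it below. The median log2 difference was 0.98 over the 10 members and 0.00 over all genes tested. The 3 genes that did not pass were P4ha1, P4ha2 and Plod1, the last at the edge of the threshold. The 7 calls ended in a fit with skeletal muscle transcript level as a covariate, which is described with the cell type markers.

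**Figure D1:**
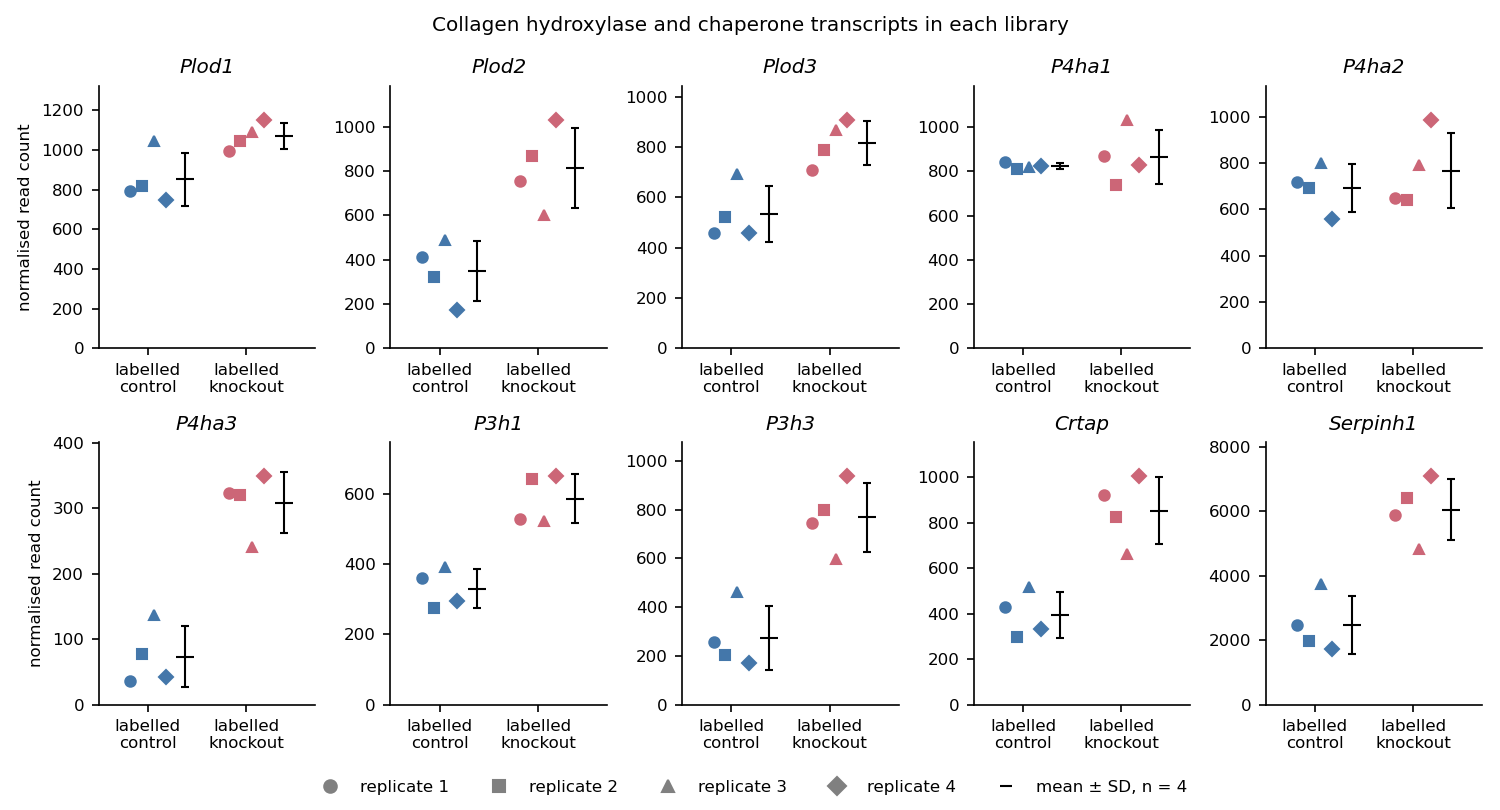
Normalised read count of each of the 10 genes (vertical axes, starting at 0, scaled per gene) in the 4 control-labelled and 4 knockout-labelled libraries, with marker shapes for the replicate numbers of the labels and the mean ± SD of each group at its right. The 2 groups are apart in 7 genes, and overlap in Plod1, P4ha1 and P4ha2.

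The lysyl hydroxylases differed in how far they moved. Plod2, on chromosome 9 from 92542223 to 92608428 (build mm10, as for the other genes), encodes the enzyme of the non-helical telopeptide lysines, whose products give the stable crosslinks of bone and fibrotic tissue. Its normalised counts were 412, 321, 490 and 174 in the control-labelled libraries and 757, 868, 601 and 1029 in the knockout-labelled ones. Every knockout-labelled library lay above every control-labelled one, with means of 349 ± 136 and 814 ± 180 (SD, n = 4 each). The log2 difference was 1.29 ± 0.29 (SE, adjusted p = 0.0148, limma), and the exact permutation p was 0.0286, the smallest that 70 assignments of 4 against 4 libraries allow.

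Plod3, on chromosome 5 from 136987019 to 136996648, encodes an enzyme that hydroxylates lysine and also transfers sugar to hydroxylysine. Its counts were 459, 524, 695 and 458 in the control-labelled libraries and 709, 790, 867 and 908 in the knockout-labelled ones. The groups did not overlap, but control replicate 3 at 695 and knockout replicate 1 at 709 came close. The log2 difference was 0.63 ± 0.14 (SE, adjusted p = 0.0150, limma).

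Plod1 encodes the enzyme that acts on lysines of the helix, and its gene lies on chromosome 4 from 147909753 to 147936767. Its counts were 794, 819, 1045 and 747 against 994, 1045, 1090 and 1150. Control replicate 3, at 1045, reached the level of the lowest knockout-labelled libraries, so the groups overlapped. The log2 difference of 0.34 ± 0.11 missed the threshold (adjusted p = 0.0514, limma, exact permutation p = 0.0571). It passed without control replicate 3 (log2 difference 0.44, adjusted p = 0.0103), with DESeq2 (0.0377), with quantile normalisation (0.0306), with equal library totals after removal of muscle, blood and the 50 highest genes (0.0176), and with a minimum count of 50 (0.0460).

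Lysyl hydroxylase transcripts as a whole were more abundant with the knockout label. Counts were divided by the summed exon length of each gene to compare genes, and the family total was 309 ± 65.1 per kilobase in the control-labelled and 490 ± 51.2 in the knockout-labelled libraries (SD, n = 4 each). The groups did not overlap in this total. Plod1 made up 41.1 ± 2.88% of the family total in the control-labelled libraries and 32.4 ± 1.92% in the knockout-labelled ones, again without overlap. Plod2 made up 20.5 ± 5.39% and 30.6 ± 4.50%, with overlapping groups, and Plod3 38.4 ± 2.97% and 37.0 ± 2.87%. Within libraries, the log2 ratio of Plod2 to Plod1 was higher by 0.95 with the knockout label, and the groups did not overlap. Its exact permutation p of 0.0286 became 0.0857 after Benjamini-Hochberg adjustment over the 6 ratios of related genes examined. The ratio of Plod2 to Plod3 was higher by 0.66 (exact permutation p = 0.0857, adjusted 0.103).

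The prolyl 4-hydroxylase alpha subunits split into P4ha3, which was higher, and P4ha1 and P4ha2, which did not pass the test. The alpha subunit carries the catalytic site and needs the shared beta subunit, protein disulphide isomerase encoded by P4hb, to stay soluble. P4ha1 encodes the main alpha subunit of most cells, P4ha2 that of chondrocytes and osteoblasts, and P4ha3 a less abundant form. The promoters of P4ha1, which did not pass, and P4ha3, the member with the largest difference, are shown for comparison, 250 bases before the RefSeq start site on build GRCm38.p6, 5′ to 3′ on the strand of the gene. Capitals mark ACGTG on either strand (CACGT where it is read on the other strand), the core of the element that hypoxia-inducible factors bind.
P4ha1, chr10:59323046-59323295, plus strand: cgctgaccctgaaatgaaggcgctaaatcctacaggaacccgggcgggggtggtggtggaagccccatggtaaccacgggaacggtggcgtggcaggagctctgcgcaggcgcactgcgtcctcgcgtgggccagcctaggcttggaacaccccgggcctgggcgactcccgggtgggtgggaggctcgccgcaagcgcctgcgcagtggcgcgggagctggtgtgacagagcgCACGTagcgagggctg
P4ha3, chr7:100285270-100285519, plus strand: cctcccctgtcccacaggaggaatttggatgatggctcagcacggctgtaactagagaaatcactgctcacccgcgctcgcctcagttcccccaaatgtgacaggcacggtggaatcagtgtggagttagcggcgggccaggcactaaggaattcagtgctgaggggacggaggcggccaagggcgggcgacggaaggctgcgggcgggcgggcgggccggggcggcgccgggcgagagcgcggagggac
The P4ha1 window held the core at position -16 from the start site and 1 GC box, GGGCGG, at -209. The P4ha3 window held no core and 5 copies of the GC box, between -69 and -30.

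P4ha3, on chromosome 7 from 100285520 to 100319699, had normalised counts of 35.7, 77.7, 137 and 41.6 in the control-labelled libraries and 323, 321, 241 and 349 in the knockout-labelled ones. The lowest knockout-labelled library was far above the highest control-labelled one, replicate 3, although P4ha3 had the fewest reads of the members, 33 in its lowest library. The means were 73.1 ± 46.7 and 308 ± 46.4 (SD, n = 4 each), a ratio of 4.22. The log2 difference was 2.25 ± 0.37 (SE, adjusted p = 0.00554, limma; exact permutation p = 0.0286), and it ranged from 1.99 to 2.62 when each library was left out.

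P4ha1, on chromosome 10 from 59323296 to 59373304, had counts of 844, 811, 820 and 827 in the control-labelled libraries and 869, 741, 1032 and 828 in the knockout-labelled ones. The control-labelled values lay within the knockout-labelled range. The log2 difference was 0.06 ± 0.10 (SE, adjusted p = 0.694, limma), and it turned to -0.03 without knockout replicate 3, the highest library. P4ha2, on chromosome 11 from 54100095 to 54131665, had counts of 717, 692, 802 and 556 against 650, 641, 793 and 985. Its groups overlapped, and the log2 difference was 0.14 ± 0.16 (adjusted p = 0.552, limma).

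Per kilobase, the alpha subunits summed to 335 ± 28.0 in the control-labelled and 432 ± 38.3 in the knockout-labelled libraries, without overlap. P4ha3 made up 6.76 ± 3.77% of that sum in the former and 22.9 ± 4.19% in the latter, and these groups did not overlap. The P4ha1 share was 60.2 ± 5.28% and 48.8 ± 5.26%, and the P4ha2 share 33.0 ± 2.49% and 28.3 ± 3.74%, both with overlap. The log2 ratio of P4ha3 to P4ha1 within a library was higher by 2.19 with the knockout label (exact permutation p = 0.0286, adjusted 0.0857 over the 6 ratios), with the groups apart. That of P4ha2 to P4ha1 was higher by 0.08 (exact permutation p = 0.657). The beta subunit gene P4hb stood at 3654 ± 368 and 4808 ± 483 normalised counts, a log2 difference of 0.40 ± 0.10 (adjusted p = 0.0231, limma). The P4hb call did not survive leaving out any of 4 libraries, control replicates 2 and 4 and knockout replicates 2 and 4 (adjusted p 0.0548 to 0.0641).

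**Figure D2:**
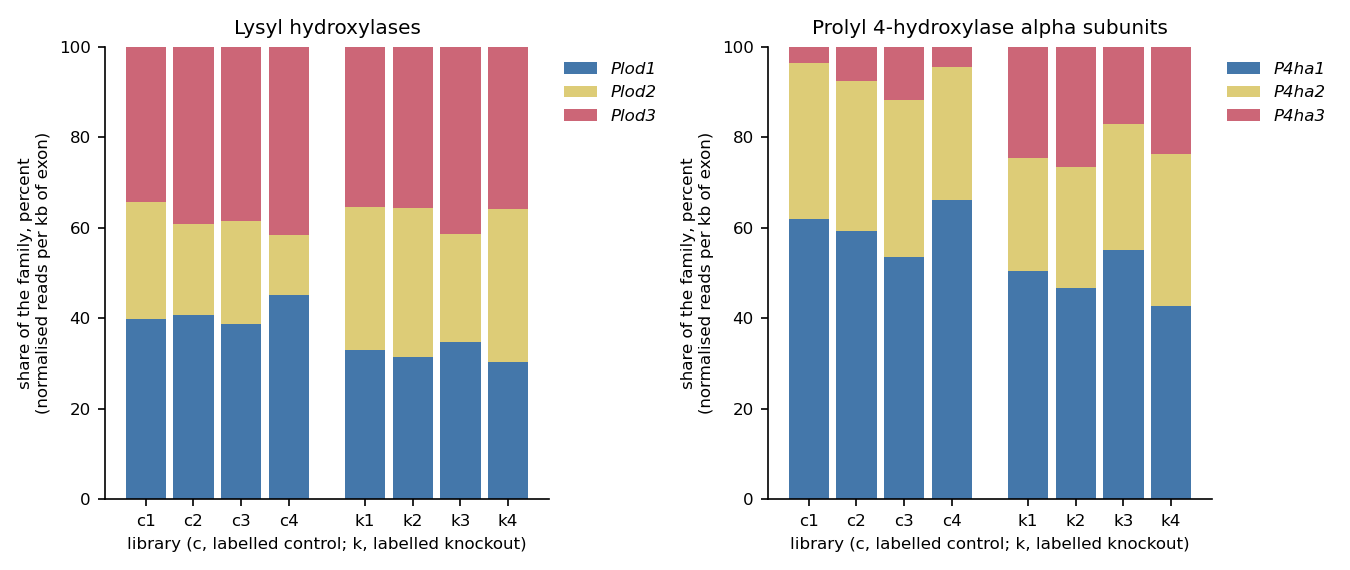
Share of each gene in the summed level per kilobase of its enzyme family (percent, vertical axis) as stacked bars, 1 bar per library (c, control-labelled, and k, knockout-labelled, with the replicate number), for the lysyl hydroxylases on the left and the prolyl 4-hydroxylase alpha subunits on the right. The P4ha3 share is 16.9% or more in the knockout-labelled libraries and 11.8% or less in the control-labelled ones, and the Plod1 share is lower in all 4 knockout-labelled libraries than in any control-labelled one.

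The prolyl 3-hydroxylation complex was higher in its hydroxylase and in its chaperone. P3h1, on chromosome 4 from 119232915 to 119248975, encodes the hydroxylase of the complex. Its counts were 360, 276, 393 and 294 in the control-labelled libraries and 528, 642, 523 and 650 in the knockout-labelled ones, with the groups apart and a log2 difference of 0.83 ± 0.14 (SE, adjusted p = 0.00560, limma). Crtap, on chromosome 9 from 114375134 to 114390675, encodes the helper protein without which P3H1 is unstable. Its counts were 432, 297, 518 and 331 against 921, 825, 662 and 1004, again apart, with a log2 difference of 1.13 ± 0.19 (adjusted p = 0.00569, limma). The third partner, Ppib, which encodes cyclophilin B, was higher by 0.95 ± 0.14 (adjusted p = 0.00456, limma), from 286 ± 48.2 to 552 ± 81.1 normalised counts.

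P3h3, on chromosome 6 from 124841089 to 124857752, encodes a relative of P3H1 that acts with the product of P3h4 in lysyl hydroxylation of the helix. Its counts were 255, 205, 462 and 172 in the control-labelled libraries and 744, 800, 596 and 937 in the knockout-labelled ones. Control replicate 3 was the highest and knockout replicate 3 the lowest of its group, and the groups did not overlap. The log2 difference was 1.58 ± 0.27 (SE, adjusted p = 0.00630, limma), which among the members was below that of P4ha3 only. The log2 ratio of P3h3 to P3h1 was higher by 0.75 with the knockout label, with overlap (exact permutation p = 0.0571, adjusted 0.103), and that of Crtap to P3h1 by 0.30 (0.0857, adjusted 0.103).

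Serpinh1, on chromosome 7 from 99345376 to 99353239, encodes HSP47, a chaperone that is specific for collagen although it belongs to the serpin family and responds to heat. It had the highest level per kilobase of the 10 genes. Its promoter window is shown because it is the most abundant member and a known heat-inducible gene, with ACGTG in capitals as before.
Serpinh1, chr7:99353240-99353489, minus strand: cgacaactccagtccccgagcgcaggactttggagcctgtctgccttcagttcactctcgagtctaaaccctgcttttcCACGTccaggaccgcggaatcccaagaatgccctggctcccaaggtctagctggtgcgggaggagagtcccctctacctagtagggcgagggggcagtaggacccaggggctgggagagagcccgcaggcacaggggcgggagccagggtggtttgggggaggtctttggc
The core lay at position -171. GAANNTTC, the only form of heat shock element searched for, was not among these letters. Serpinh1 counts were 2472, 1963, 3741 and 1726 in the control-labelled libraries and 5889, 6410, 4837 and 7086 in the knockout-labelled ones. The groups were apart, with means of 2476 ± 899 and 6056 ± 949 (SD, n = 4 each), and the log2 difference was 1.34 ± 0.22 (SE, adjusted p = 0.00556, limma; exact permutation p = 0.0286).

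**Figure D3:**
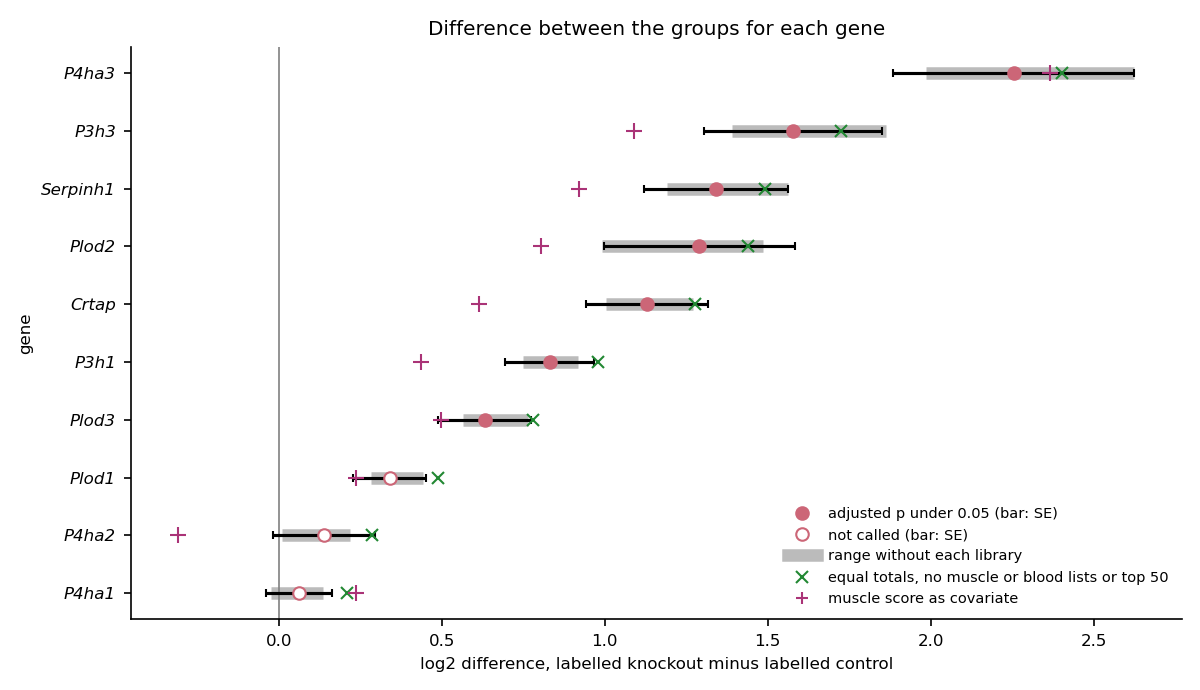
Log2 difference of the 10 genes, knockout-labelled minus control-labelled, with the standard error of the limma fit as a bar and the range over fits that each left out a library as a grey band. Crosses give the value with equal library totals and plus signs that with the muscle covariate. The 7 called genes lie from 0.63 for Plod3 to 2.25 for P4ha3, and the band of P4ha1 crosses 0.

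Of the 10 members, 9 matched RefSeq promoters, in 10 windows since P3h1 has 2, and Plod2 was not matched. The hypoxia core ACGTG was found in 5 of these 10 windows, those of Plod3, P4ha1, P4ha2, Serpinh1 and the downstream window of P3h1, and in 16.6% of all 32851 windows. The GC box GGGCGG was found in 6 member windows and in 32.7% of all, and CCAAT in 3 and in 33.8%. The heat shock element pair was searched for only as GAANNTTC, found in 0 member windows and in 6.69% of all. TGACGTGG, which contains ACGTG, was in 0 member windows and in 0.563% of all. The windows with the core included members that passed the test and members that did not. All motifs were searched on both strands, and the matches describe letters only.

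The order of the genes by level per kilobase was nearly the same in both groups at its ends. Serpinh1 was first at 1013 ± 368 in the control-labelled libraries and 2479 ± 388 in the knockout-labelled ones (SD, n = 4 each). Crtap was next at 222 ± 56.6 and 481 ± 82.8, which overlapped the third, P4ha1 at 201 ± 3.40, in the control-labelled libraries only. P4ha1 stood at 211 ± 29.7 in the knockout-labelled libraries. P4ha3 was last at 23.3 ± 14.9 and 98.4 ± 14.8, overlapping its neighbour in the order in each group, which was Plod2 at 64.8 ± 25.1 in the first and P4ha2 at 123 ± 25.8 in the second. P3h3 went from the eighth place at 69.6 ± 33.1 to the fourth at 196 ± 35.9, where it overlapped P4ha1 above it and Plod3 below it, the latter at 181 ± 19.4. Among the other neighbours in the order, ranges over libraries overlapped in both groups, except between P4ha1 and the fourth gene, Plod1, in the control-labelled libraries and at the step from Serpinh1 to Crtap in both groups.

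The libraries of a group tended to rank alike across the members. Control replicate 3 was the highest control-labelled library in 9 of 10 genes, all but P4ha1, and control replicate 4 the lowest in 6. Knockout replicate 4 was the highest of its group in 9 genes, all but P4ha1, and knockout replicate 3 the lowest in 6. The mean log2 level of the 11 tested fibroblast markers ranked in the same way, at 9.96 in control replicate 3 against 8.85 to 9.03 in the other controls, and at 10.85 in knockout replicate 4 against 9.83 in knockout replicate 3.

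Markers of several cell types differed between the groups along with the members. Over all genes tested, 11.6% were called higher and 11.6% lower. Equal library totals called 3492 genes, 2708 of them higher, and quantile normalisation 2558, 1295 of them higher. Of 11 tested fibroblast markers 8 were called higher and 0 lower, with a median log2 difference of 1.10, and their summed level ranged from 10760 to 22756 in the control-labelled and from 18233 to 41605 in the knockout-labelled libraries. Skeletal muscle markers were lower for 7 of 14 and higher for 0, with sums of 2055978 to 2177424 and 993879 to 1444471. The count of lower muscle markers was 3 with quantile normalisation, 6 with equal library totals, and 12 with edgeR and with DESeq2. Macrophage markers were higher for 8 of 10 (1485 to 3411 and 5093 to 7036), osteoclast markers for 7 of 8 (1868 to 14065 and 10270 to 39329), osteoblast markers for 4 of 10 (1143 to 7888 and 6440 to 13127) and chondrocyte markers for 1 of 9 (15257 to 37346 and 30247 to 55136). With edgeR and with DESeq2 4 osteoclast and 2 osteoblast markers were higher, and with equal library totals and quantile normalisation 3 chondrocyte markers were. None of 10 endothelial (6147 to 7823 and 4940 to 9906), 8 erythroid (16792 to 99067 and 4046 to 42645) and 9 neutrophil markers (1412 to 5736 and 1128 to 2739) was called by limma, edgeR or DESeq2, with 0, 7 and 1 of them at an unadjusted p under 0.05 in limma. Of the adipocyte markers 1 of 8 was lower (12001 to 13930 and 9111 to 11196). Apart from Matn3, no marker in the table was at 0 in any library. In RNA of a whole joint, more cells of a type and more RNA per cell cannot be told apart, and the part of these cell types in the members' differences was not tested beyond the fits that follow.

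With the mean log2 level of the 14 muscle markers as a covariate, limma called 0 genes, with 748 at an unadjusted p under 0.05. In that fit 0 of the 10 members were called, P4ha3 alone had an unadjusted p under 0.05 (log2 difference 2.37 ± 0.89), and 9 of 10 members had positive values, from 0.24 for Plod1 and P4ha1 upwards. P4ha2 turned to -0.31. Since 80.8% of the variance of the muscle level lay between the groups, muscle content and group cannot be told apart here.

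Set against the fibroblast markers of the same library, P4ha3 was higher with the knockout label, and 6 of the other members were called in neither direction. Subtracting the mean log2 fibroblast level left Serpinh1 at 0.13, Plod2 at 0.08, Crtap at -0.08, P3h3 at 0.36, P3h1 at -0.38 and Plod3 at -0.58, and none of these 6 was called (limma). P4ha3 was higher by 1.04 ± 0.41 (SE, adjusted p = 0.0183, limma; exact permutation p = 0.0286), with the groups apart. In this comparison 0.569% of all genes were called higher and 0.254% were higher with groups apart, while 69.5% were called lower. Leaving out control replicate 1 ended the P4ha3 call (adjusted p = 0.109), as did leaving out control replicate 4 (0.0574) or knockout replicate 1 (0.0637, all limma).

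P4ha1 (-1.15), P4ha2 (-1.08) and Plod1 (-0.87) were lower relative to the fibroblast level by limma, with groups that overlapped and an exact permutation p of 0.0571 each. Across all genes 30.7% were lower with groups apart. The Plod1 call was lost on leaving out any of 6 libraries, all but the replicates 3 (adjusted p 0.0781 to 0.141), and the P4ha2 call without control replicate 1, control replicate 2 or knockout replicate 2 (0.0554 to 0.0832). That of P4ha1 was lost without knockout replicate 2 (0.0604), and Plod3 became called as lower without control replicate 3 (-0.70, 0.0486, all limma). The spread of the subtracted level between libraries enters the limma error of every gene. That error was 0.397 to 0.422 for the members, so a member not called is not shown to be unchanged. The exact test is given beside limma. The fibroblast level itself was 9.19 ± 0.51 and 10.41 ± 0.47 (SD, n = 4 each), and control replicate 3 lay above knockout replicate 3. The median log2 difference was -0.23 over the members and -1.21 over all genes.

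Relative to the fibrillar collagens, the substrates of these enzymes, 3 of the 10 members were lower and 0 higher. P4ha1 was lower by a log2 difference of -1.47 ± 0.48 (SE), P4ha2 by -1.40 ± 0.48 and Plod1 by -1.20 ± 0.48, with adjusted p of 0.00431, 0.00636 and 0.0188 (limma). All 3 had groups apart (exact permutation p = 0.0286 each). So did 68.6% of all genes in that direction, and 78.3% of all genes were called lower, so these 3 members did what most genes of the joint did. The other 7 members were not called, with values from -0.91 for Plod3 through -0.19 for Serpinh1 and 0.04 for P3h3 to 0.72 for P4ha3. Leaving out control replicate 1 made Plod3 a called gene (-1.21, adjusted p = 0.0140) and moved P4ha3 to 0.21, while leaving out control replicate 4 made P4ha3 called (0.83, 0.0499, limma). The Plod1 call was lost without control replicate 2, knockout replicate 1 or knockout replicate 2 (0.0677 to 0.0710).

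**Figure D4:**
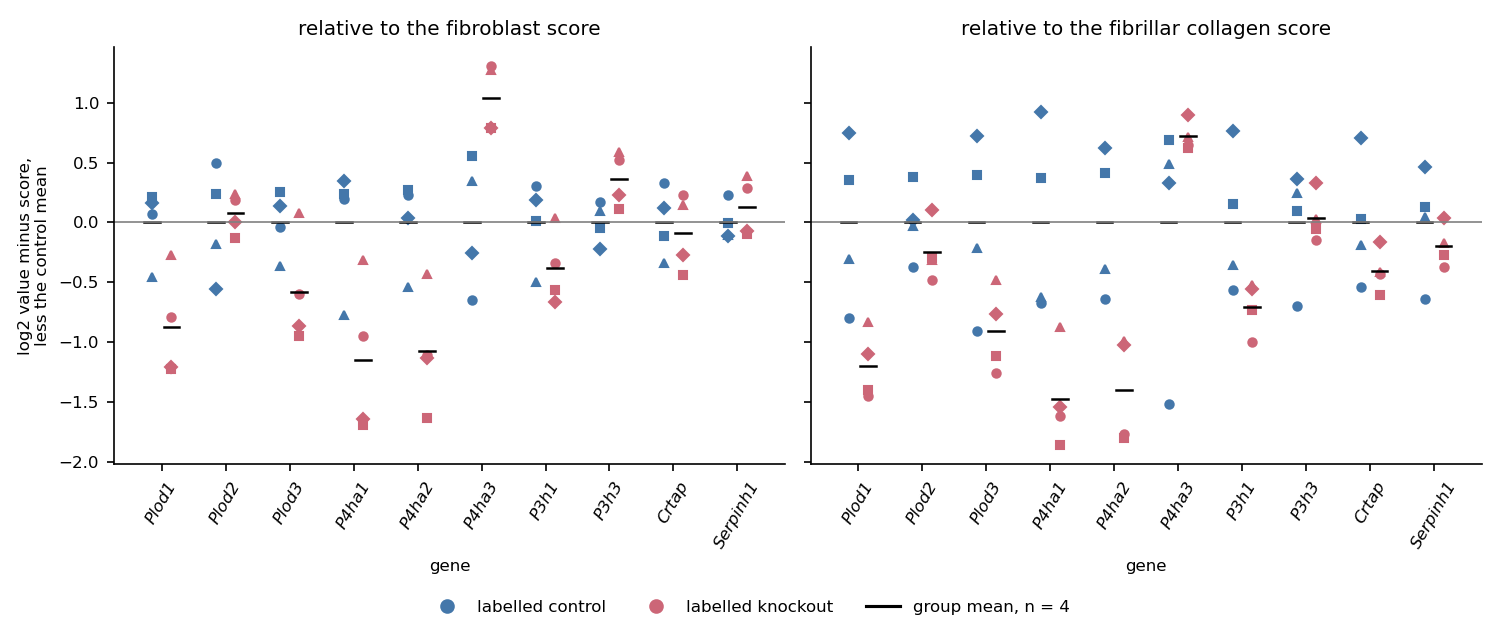
Log2 level of 10 genes in each library after subtraction of the mean log2 level of the fibroblast markers or of the fibrillar collagens in the same library, drawn less the mean of the control-labelled libraries, with circles, squares, triangles and diamonds for replicates 1 to 4 and a line for the group mean (n = 4). P4ha3 lies higher in the knockout-labelled libraries against the fibroblast markers, by 1.04 on average, and P4ha1, P4ha2 and Plod1 lie lower against the collagens.

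The partners of the members in the endoplasmic reticulum shared their direction in most cases. Of 14 tested partner genes 11 were higher and 1 lower (median log2 difference 0.87), beside 11.6% higher, 11.6% lower and a median of 0.00 over all genes tested. They included Rcn3, a calcium-binding protein of the secretory pathway, at 1.43 ± 0.21 (SE, adjusted p = 0.00432, limma), Ppib, and Fkbp7, a prolyl isomerase, at 1.64 ± 0.27 (adjusted p = 0.00574). The lower gene was Tmem38b, which encodes a potassium channel of the endoplasmic reticulum, at -0.50 ± 0.12 (adjusted p = 0.0160), and its call was lost with equal library totals (0.0538, all limma).

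Of 17 genes of procollagen export tested, 4 were higher and 1 was lower, which became 6 and 1 with equal library totals and 7 and 0 with quantile normalisation. The median log2 difference of -0.04 turned to 0.11 and 0.02 with these scalings. Over all genes tested, 11.6% were higher and 11.6% lower. Of all calls, 77.5% were higher with equal library totals and 50.6% with quantile normalisation. Among the receptors that return chaperones from the Golgi, Kdelr2 was higher at 1.04 ± 0.14 and Kdelr3 at 1.36 ± 0.26 (SE, adjusted p 0.00398 and 0.00832, limma). Kdelr1, at 0.25 ± 0.08, was not called (adjusted p = 0.0550, limma), and its groups overlapped. Sar1b, a small GTPase of the transport vesicle coat, was at -0.61 ± 0.14 (adjusted p = 0.0150) and was not called with quantile normalisation (0.114, limma).

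Most fibrillar collagen genes and genes of the steps outside the cell were higher, beside 11.6% higher and 11.6% lower over all genes tested. Of 8 procollagen trimming genes 5 were higher and 0 lower (median 1.25). The smallest p-values among them were those of Adamts2, which removes the amino propeptide, at 1.65 ± 0.25 (SE, adjusted p = 0.00456, limma), and of the proteinase enhancer gene Pcolce at 1.32 ± 0.26 (0.00977). Adamts14, a relative of Adamts2, was next at 1.37 ± 0.32 (0.0156), and its call was lost without knockout replicate 4 (0.0511, limma). Of 9 fibrillar collagen genes 6 were higher (median 1.68), with Col5a1 at 1.96 ± 0.35, Col11a1 at 2.17 ± 0.49 and Col3a1 at 2.40 ± 0.57 (SE; adjusted p 0.00724, 0.0144 and 0.0167, limma), the last not called without knockout replicate 4 (0.0508). Col5a3 at 1.19, Col2a1 at 0.79 and Col11a2 at 0.28 were not called (adjusted p 0.0991, 0.441 and 0.753, limma). With edgeR and with DESeq2 5 fibrillar collagen genes were higher. Of 5 lysyl oxidase genes 4 were higher, Lox at 2.03 ± 0.35, Loxl1 at 1.26 ± 0.28, Loxl3 at 1.03 ± 0.26 and Loxl2 as above (adjusted p 0.00631, 0.0131 and 0.0197 for the first 3, limma). Loxl3 was not called without control replicate 2, knockout replicate 2 or knockout replicate 4 (0.0506 to 0.0602).

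Enzymes that share the 2-oxoglutarate chemistry of the hydroxylases but act on other substrates did not share their direction. Of 18 tested, 2 were higher and 7 lower (median -0.23), which became 4 and 3 with equal library totals and 1 and 3 with quantile normalisation. Among all genes tested 11.6% were higher and 11.6% lower, a split that changed with scaling as given for procollagen export. Hif1an, the asparagine hydroxylase of hypoxia-inducible factors, was at -0.70 ± 0.12, the RNA demethylase gene Alkbh5 at -0.50 ± 0.09 and Ogfod1 at -0.40 ± 0.09 (SE; adjusted p 0.00684, 0.00653 and 0.0117, limma). Ogfod1 was not called with equal library totals (0.0549).

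Genes induced by low oxygen, a condition under which P4ha1, P4ha2 and Plod2 are known to be induced, were higher for 1 and lower for 4 of 15 (median -0.25). These counts became 2 and 1 with equal library totals and 1 and 0 with quantile normalisation. The shares of all genes tested were 11.6% higher and 11.6% lower, and they too changed with scaling. Hexokinase gene Hk2 was at -0.54 ± 0.10, Bnip3 at -0.42 ± 0.10 and Ndrg1 at 0.39 ± 0.11 (SE; adjusted p 0.00905, 0.0143 and 0.0305, limma). Hk2 was not called with quantile normalisation (0.0623), Bnip3 not with either of these scalings (0.0522 and 0.0767), and Ndrg1 not in 5 of 8 fits that each left out a library (control replicates 2 and 4, knockout replicates 2, 3 and 4, 0.0560 to 0.0817).

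General chaperones of the endoplasmic reticulum were higher for 5 of 16 and lower for 0 (median 0.24), and higher for 8 with equal library totals and 7 with quantile normalisation. All genes tested were higher in 11.6% and lower in 11.6%, a split that changed with scaling as given for procollagen export. The disulphide isomerase genes Pdia3 and Pdia4 were at 0.89 ± 0.15 and 0.84 ± 0.19, and Hsp90b1 at 0.46 ± 0.11 (SE; adjusted p 0.00608, 0.0148 and 0.0167, limma), the last not called without knockout replicate 4 (0.0512). Cytosolic heat shock genes were lower for 5 of 11 and higher for 0 (median -0.42), which became 2 and 0 with equal library totals and with quantile normalisation. Hsp90ab1 was at -0.53 ± 0.11, Hspa8 at -0.46 ± 0.10 and Hspd1 at -0.40 ± 0.10 (adjusted p 0.0108, 0.0109 and 0.0198, limma). With quantile normalisation none of these 3 was called (0.163 to 0.363), and Hspd1 was also lost with equal totals (0.0801) or without control replicate 2 (0.0597).

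**Figure D5:**
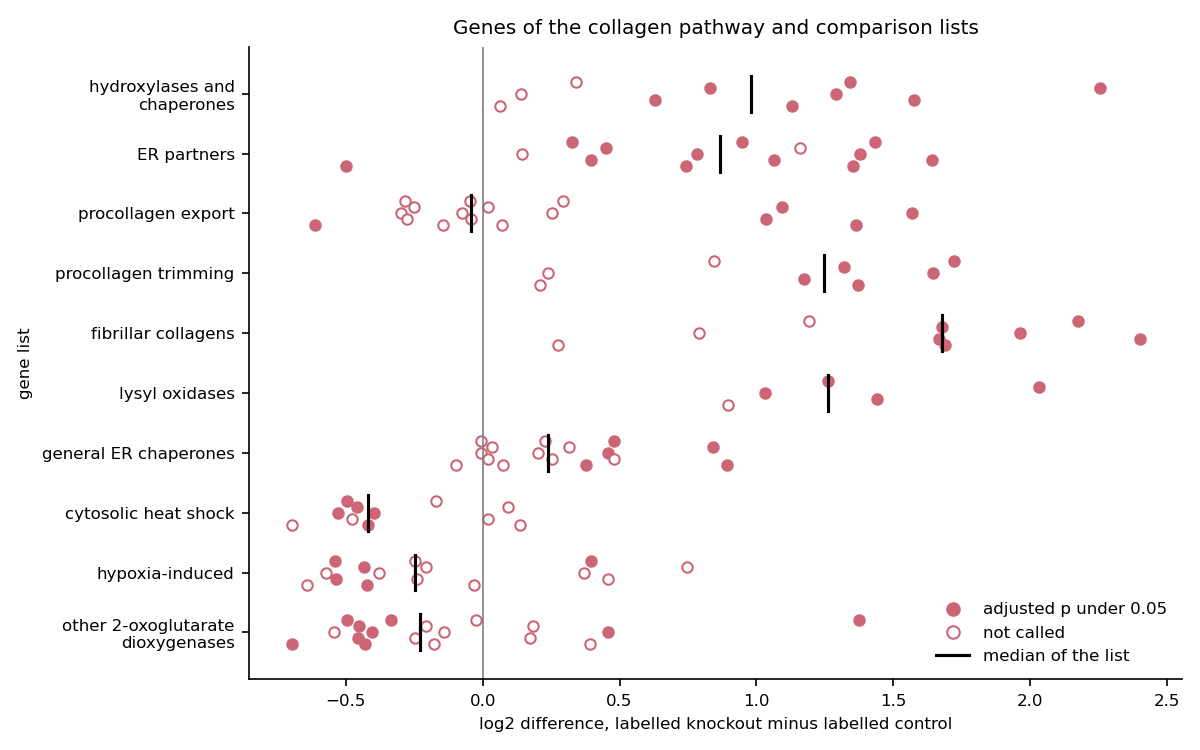
Log2 difference of every tested gene, knockout-labelled minus control-labelled, in the 10 genes and in 9 lists of related processes, with filled points for genes called at an adjusted p under 0.05 and a bar at the list median. The lists of collagen processing other than procollagen export lie mostly above 0. Procollagen export has a median of -0.04. Other 2-oxoglutarate enzymes, hypoxia-induced genes and cytosolic heat shock genes also have medians below 0.

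The genes whose profile over the 8 libraries came closest to a member were sought by the root-mean-square distance of mean-centred log2 values among 11636 genes with a mean count of at least 50. Closest to Plod2 were Fkbp10 at 0.095, Sdk2 at 0.132 and Tsku at 0.146, where the median distance was 0.830. Fkbp10 encodes an endoplasmic reticulum prolyl isomerase, FKBP65, and its counts were 499 ± 188 and 1217 ± 239 (SD, n = 4 each). Closest to P4ha3 were Wnt16 at 0.201, Prrx2 at 0.211 and Igf1 at 0.265, against a median of 1.29.

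Closest to Serpinh1 were Pcolce at 0.083, Efemp2 at 0.0999 and Kdelr3 at 0.105, against a median of 0.797. Closest to P3h1 were the actin regulator genes Cfl1 at 0.065 and Cap1 at 0.078, and Ptms at 0.074, against a median of 0.524. Among the members, Serpinh1 was nearest to P3h3, at 0.146. These distances describe 8 libraries that share the group difference, and every neighbour named was itself higher with the knockout label.

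Members that overlap other genes on the map were checked, since the use of strand in counting is not given in the sources used here. Plod2 shares exon sequence with Gm38391 on the other strand, which had 7.53 ± 4.35 and 20.2 ± 4.80 normalised counts (SD, n = 4 each), small beside Plod2. Plod3 shares exon sequence with Znhit1 on the other strand, at 498 ± 59.7 and 454 ± 78.5 (adjusted p = 0.498, limma). Without strand, reads of the shared stretch cannot be assigned to Plod3 or Znhit1. Mir702 lies within Plod3 on the same strand and is not in the table. Crtap overlaps 4930520O04Rik outside exons, at 10.02 ± 2.93 and 14.4 ± 4.72. Loxl2, not a member, shares exon sequence with Gm27177 on the other strand and with Mir6950 on the same strand. The levels of genes that overlap Loxl2 or other named genes outside the members were not examined.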

How the data were processed

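The deposited values are a normalised signal, 1 size-factor-scaled read count per gene and library. Per the labels, the authors used featureCounts for counts per gene on mouse build mm10 and DESeq2 for normalisation, and the submitters' processing notes name HISAT2. Versions, annotation, strand setting and filters are not given in the sources used here. In each library 100% of the low values were whole multiples (within 0.01) of the value of 1 read, in 2 of them with a step so near 1 that this says little.

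Libraries were grouped by title. Values were transformed as log2(value + 1), so fold changes of low genes are understated. Genes with at least 10 in at least 4 libraries were fitted with limma 3.58.1 (lmFit, eBayes with trend) with no replicate term, and p-values were adjusted over all 14949 genes. Single values were tested with exact two-sided permutation over 70 assignments. Scores are the mean log2 value of a list in a library. The script was tested on simulated data. The tests were repeated with other pseudocounts (0.1 and 5), filters, scalings, a replicate term, a muscle covariate, each library left out, and with edgeR 4.0.16 and DESeq2 1.42.0 on the recovered reads, which called 3324 and 4125 genes. The exact test as a substitute for limma was added after seeing the data.

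Coordinates and exon lengths are from GENCODE M21 (mm10), which matched 99.2% of names, and promoters from RefSeq. Repeated names numbered 12, of which Aldoa is on a list and its first row was used. Pdia2, Ero1a and Matn1 were not found by name. Members and lists were chosen with earlier results of these data known. Named genes are all members, the 3 called genes of smallest p per process list, the 3 nearest profiles of Plod2, P4ha3, P3h1 and Serpinh1, and Loxl2. From each cell type list up to 2 genes of smallest p were chosen, of which only Hapln1 and Comp are named. P4hb, Tmem38b, Matn3, Acan, Kdelr1, Col2a1, Col5a3, Col11a2 and the overlapping genes were named after their values were seen. Libraries of a group differed by more than counting error in every pair (chi-square per degree of freedom 25.8 to 66.1). The labels do not say that samples came from separate mice, so p-values measure the spread between these samples, which may be technical. No sequencing batch or date is given.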

Additional observations from a re-analysis of the deposited data

Results flagged for a closer look

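The log2 ratio of Plod2 to Plod3 was -0.53 in knockout replicate 3, while the other knockout-labelled libraries held 0.09, 0.14 and 0.18. Its gap to the nearest of them was 0.877 of the group's range, above Dixon's critical value for 4 samples. The value lay within the control-labelled range of -1.39 to -0.15. Among 32 groups of 4 values examined in this way, 1 exceeded the critical value, and chance gives about 1 in 20.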

How the results depend on the processing

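The 7 calls among the members held in each scaling, pseudocount, filter, count model, replicate term and library left out, with 7 or 8 called, and ended in the fit with the muscle covariate, where 0 members and 0 of all genes were called. Against 3461 genes called as reported, leaving out a library gave 1740 (without knockout replicate 4) to 3832, with 1909 in the absence of control replicate 2 and 2209 in that of control replicate 4. The replicate numbers did not pair the libraries: deviations of same-numbered libraries correlated at 0.21, -0.12, -0.23 and -0.06, and not every library correlated best with its own number. With the replicate block 2018 genes, 7 members and 36 process-list genes (56 without it) were called, and 0 members relative to the fibroblast level instead of 4, P4ha3 having an adjusted p of 0.0991. Relative to that level, leaving out a library gave 1 to 5 called members and the exact test, added after seeing the data, 1. Equal library totals moved the median of all genes by 0.15 and made 77.5% of calls higher, against 50.04% as reported. Signs turned for P4ha2 with the muscle covariate (-0.31) and, on leaving out a library, for the following. P4ha1 ranged from -0.025 to 0.13 (lowest without knockout replicate 3). Relative to the fibroblast level, Plod2 ranged from -0.11 (without control replicate 4) to 0.24, and Crtap from -0.20 to 0.034 (above 0 without control replicate 1 or knockout replicate 2). Relative to the fibrillar collagens, P3h3 ranged from -0.19 to 0.16 (below 0 without control replicate 1 or knockout replicate 4). The P4ha2 to P4ha1 ratio ranged from -0.070 to 0.15 (below 0 without control replicate 4 or knockout replicate 4). None of these sign changes was in a called value, and the causes were not tested. With 3 against 4 libraries the smallest exact p is 0.0286, and no adjusted ratio passed in any setting. At 33 reads, the lowest value of P4ha3 carries the most counting error of the members.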
